A study of Mus musculus with 8 samples.

Results

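Cell cycle and DNA replication genes were examined in E18.5 mouse embryos, in RNA of the small intestine. The set held 44 genes: 20 of S phase, when DNA is copied, 22 of mitosis, when chromosomes are separated, and the 2 D-type cyclins Ccnd1 and Ccnd2, which act before S phase. Members were the probes whose gene name in the scanner output was one of the 44 symbols, and the brightest probe that passed a filter on dim signal stood for its gene. The 44 genes had 58 probes. Of all genes on the array, 23282 passed the filter, and 41 of the 44 members were among them.

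The study compared 4 arrays labelled control, from Rfx6+/+ embryos, with 4 arrays labelled Rfx6 KO, from Rfx6-/- embryos. Rfx6 encodes a transcription factor of the gut endocrine lineage. The deletion came from a floxed allele recombined by CMV-Cre, a Cre driven by a promoter active throughout the body, after which heterozygotes were intercrossed. It was therefore not limited to endocrine cells or to the intestine. The RNA came from whole small intestine, in which epithelium, mesenchyme, muscle, nerve, vessel and blood cells are mixed, so fewer dividing cells and less RNA per dividing cell cannot be told apart. The labels do not say whether a sample came from 1 embryo or several, and p-values measure the spread between these samples.

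A cell that commits to division makes D-type cyclins, which activate the kinases Cdk4 and Cdk6 and so free E2F transcription factors from the Rb family. E2F factors switch on cyclin E, the proteins that load the MCM helicase onto replication origins, and the enzymes that copy DNA and make nucleotides. A later wave of genes, bound by the MuvB complex with B-Myb (Mybl2) and Foxm1, builds the spindle and drives mitosis. In the late fetal gut, dividing epithelial cells lie between the villi, and mesenchymal cells divide as well.

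These waves are marked in the promoters by short motifs, and the sequences of 5 members are shown here because they carry the E2F-type or the mitotic motif, or neither. They are the 250 bases before the start site, from RefSeq on GRCm38.p6, written 5′ to 3′ with motif matches in capitals. The windows lie at chr8:75109259-75109508 (plus strand) for Mcm5, chr1:128359706-128359955 (minus strand) for Mcm6, chr4:118437344-118437593 (minus strand) for Cdc20, chr9:70421555-70421804 (minus strand) for Ccnb2 and chr2:132253181-132253430 (minus strand) for Pcna.
Mcm5: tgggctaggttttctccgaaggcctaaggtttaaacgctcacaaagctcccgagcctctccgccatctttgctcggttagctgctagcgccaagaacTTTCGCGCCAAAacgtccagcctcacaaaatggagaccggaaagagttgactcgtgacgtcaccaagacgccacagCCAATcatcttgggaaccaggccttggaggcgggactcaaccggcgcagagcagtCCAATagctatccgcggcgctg
Mcm6: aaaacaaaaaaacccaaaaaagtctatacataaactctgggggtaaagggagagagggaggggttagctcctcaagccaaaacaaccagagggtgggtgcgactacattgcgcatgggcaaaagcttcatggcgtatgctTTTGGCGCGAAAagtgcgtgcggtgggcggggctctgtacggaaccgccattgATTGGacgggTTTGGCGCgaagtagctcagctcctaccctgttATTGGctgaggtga
Cdc20: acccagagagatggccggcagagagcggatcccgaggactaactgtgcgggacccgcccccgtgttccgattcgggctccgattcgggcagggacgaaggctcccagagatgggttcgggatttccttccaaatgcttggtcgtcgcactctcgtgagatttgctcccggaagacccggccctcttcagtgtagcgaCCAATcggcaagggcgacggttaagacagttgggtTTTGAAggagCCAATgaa
Ccnb2: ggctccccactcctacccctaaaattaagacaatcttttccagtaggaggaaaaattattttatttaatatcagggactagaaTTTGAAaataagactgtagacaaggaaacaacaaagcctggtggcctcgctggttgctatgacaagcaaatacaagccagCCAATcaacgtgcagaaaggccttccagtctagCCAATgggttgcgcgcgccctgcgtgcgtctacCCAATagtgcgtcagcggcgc
Pcna: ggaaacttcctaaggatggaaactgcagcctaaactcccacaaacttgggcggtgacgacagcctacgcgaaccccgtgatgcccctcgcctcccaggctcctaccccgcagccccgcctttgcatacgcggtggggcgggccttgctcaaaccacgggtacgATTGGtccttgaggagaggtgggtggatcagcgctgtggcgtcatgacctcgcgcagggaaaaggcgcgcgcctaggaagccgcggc

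In Mcm5 and Mcm6, the capitals TTTCGCGCCAAA and TTTGGCGCGAAA each hold 2 overlapping E2F-type matches on opposite strands. The Cdc20 and Ccnb2 windows hold TTTGAA, the cell cycle genes homology region (CHR) that MuvB complexes recognise, and CCAAT boxes. In Cdc20 the 3 matches lie close together, while in Ccnb2 the printed TTTGAA lies further upstream than the 3 CCAAT boxes. Another Ccnb2 TTTGAA begins at position 4 from the start site, past the printed bases and downstream of the CCAAT boxes. The Pcna window holds only a CCAAT box, read on the other strand as ATTGG.

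Motifs were counted over the full RefSeq windows, 250 bases before to 50 after the start site, on both strands. E2F-type matches were TTTCGCGC, TTTGGCGC, TTTCCCGC or TTTGGCGG, CHR matches were TTTGAA or the palindrome TTCGAA, and the third motif was CCAAT. Of the members, 34 had a window. No window was held for Ccnd1, Ccnd2, Ccne2, Gmnn, Mcm4, Ccna2, Foxm1, Aurkb, Kif20a or Tpx2. An E2F-type match lay in 8 of 17 S phase genes and in 0 of 17 mitotic genes, against 2.70% of all genes with a window. A CHR match lay in 12 of 17 mitotic genes and in 3 of 17 S phase genes, against 21.7% of all genes. CCAAT lay in 14 of 17 mitotic and 10 of 17 S phase genes, against 41.1% of all genes. A match describes the letters of the window and does not show that a factor binds there.

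Each level is a log2 signal scaled to the 75th percentile of its array, and a difference is the mean of the Rfx6 KO arrays minus that of the control arrays. The 8 arrays had 75th percentiles between 636 (KO 4) and 741 (KO 1) signal units and lay on 1 slide. Row 1 of the slide held control 1 and KO 2, 3 and 4, and row 2 held the rest, so row and group are partly confounded. All 8 gut epithelium markers, Cdx2 and Vil1 among them, were well above background on every array. The Rfx6 probe does not check the labels: it read -2.76 ± 0.56 in the knockouts and -3.14 ± 0.40 in the controls (SD, n = 4), and the difference of 0.38 did not pass (limma adjusted p 0.504). In both groups 1 array stood apart in cell cycle levels, control 2 and KO 4, and each result on members is set against these arrays below.

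None of the 41 cell cycle and replication genes tested passed the threshold between control and Rfx6 KO intestine, and their differences were small. At an adjusted p under 0.05 in limma, 0 of 41 members were higher and 0 of 41 were lower, where 4.90% of all 23282 genes were called, 2.32% higher and 2.58% lower. At an unadjusted p under 0.05 there were 5 members, or 12.2%, against 20.5% of all genes: 1 higher, against 7.66%, and 4 lower, against 12.8%. The only alternative among 20 that called any member was limma with array weights, which called 2 lower, E2f2 and Pcna, and called 9.95% of all genes. The precision allows a bound on the change: the 95% interval of the difference lay within 1 log2 unit of 0 for 41 of 41 members, against 92.3% of all genes, and within 0.5 for 31 of 41, or 75.6%, against 62.4%.

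The median difference was -0.0033 for the 17 S phase members and -0.061 for the 22 mitotic members, against -0.051 for all genes tested. By sign alone, 27 of 41 members were lower on the knockout arrays, or 65.9%, beside 60.5% of all genes, and this count was 17 under quantile normalization, 15 under median centring and 36 with array weights. It was 37 without control 2, 16 without KO 4 and 17 without control 3. Without control 2 the S phase median was -0.12 and without KO 4 it was 0.11, so a single array turned its sign. With both arrays left out, an alternative added after the data were seen, the medians were 0.0081 for S phase and -0.077 for mitotic members, and 0 members were called.

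**Figure D1:**
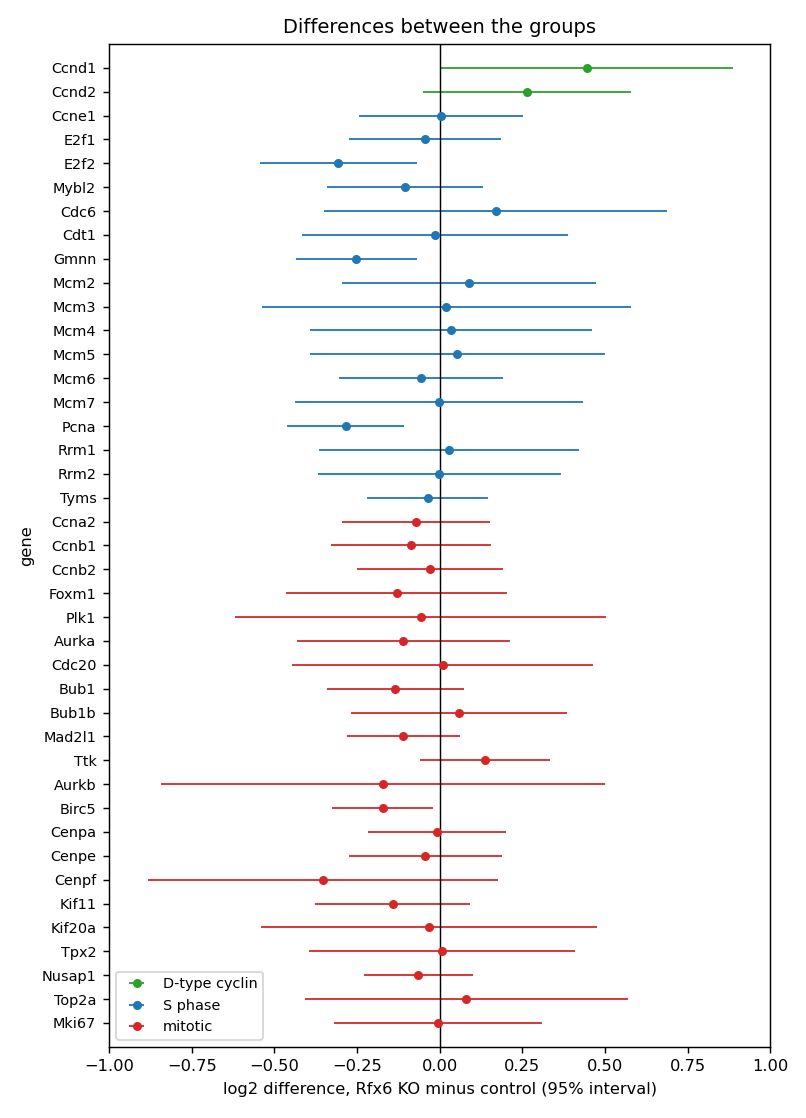
Log2 difference between the Rfx6 KO and control arrays (x axis) for each of the 41 members that passed the filter (y axis, by role). Points are limma estimates from 4 arrays a group, bars are unadjusted 95% intervals, and colours mark D-type cyclins, S phase and mitotic genes. Most points lie near 0, and every interval lies between -1 and 1.

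The D-type cyclins carry growth signals to Cdk4 and Cdk6. Ccnd1 (mm9, chromosome 7, probe at 152116202 to 152116261) read 2.61, 2.04, 2.84 and 2.65 on control arrays 1 to 4 and 3.13, 3.22, 3.00 and 2.57 on KO arrays 1 to 4. KO 1, 2 and 3 lay above every control array, and KO 4 lay among the controls. The groups differed by 0.44 (standard error 0.195, limma adjusted p 0.242). Ccnd2 differed by 0.26 with an adjusted p of 0.326 in limma, and its groups also overlapped. These were the 2 members with the highest positive differences, and neither passed the threshold. Without control 2 the differences were 0.28 for Ccnd1 and 0.14 for Ccnd2, and without KO 4 they were 0.58 and 0.33. With both arrays left out they were 0.42 (standard error 0.097, limma adjusted p 0.070) and 0.20, and neither passed.

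Among the G1/S cyclins and transcription factors, the most negative difference was that of E2f2, an activator E2F. E2f2 (mm9, chromosome 4, 135750562 to 135750621) read 2.11, 1.87, 2.16 and 2.07 on the controls and 1.81, 1.80, 1.87 and 1.51 on the knockouts. The knockouts lay below the controls, but only just, since the lowest control and the highest knockout, control 2 and KO 3, both round to 1.87. They differed by -0.31 (standard error 0.10, limma adjusted p 0.142), a value that ran from -0.37 to -0.23 over the alternatives. With array weights its adjusted p was 0.0326. The partner activator E2f1 differed by -0.044, cyclin E1 (Ccne1) by 0.0046 and B-Myb (Mybl2) by -0.11, all with groups that overlapped. Dimmer second probes had the opposite sign, at -0.077 for Ccne1 and 0.092 for Mybl2.

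Origin licensing loads the ring-shaped MCM2-7 helicase with the help of Cdc6 and Cdt1, and geminin (Gmnn) blocks Cdt1 once S phase has begun. The 6 MCM genes differed by between -0.057 (Mcm6) and 0.090 (Mcm2), and none had groups that stood apart. Mcm3 (mm9, chromosome 1, 20793136 to 20793195) read 3.01, 2.48, 3.38 and 3.36 on the controls and 3.31, 3.30, 3.21 and 2.50 on the knockouts. Control 2 and KO 4 were low by a like amount, and the difference between groups was 0.021 with a standard error of 0.25. The loading factors Cdc6 and Cdt1 differed by 0.17 and -0.014, with -0.0041 for a dimmer second Cdc6 probe. Gmnn (mm9, chromosome 13, 24843715 to 24843774) did not follow them: it read 0.96, 0.96, 0.82 and 0.73 on the controls and 0.65, 0.56, 0.59 and 0.66 on the knockouts. All knockout arrays lay below all control arrays, and the difference of -0.25 with a standard error of 0.081 did not pass (limma adjusted p 0.122). A dimmer second Gmnn probe gave -0.21 with a standard error of 0.30 and overlapping groups.

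At the replication fork, PCNA is the sliding clamp that holds DNA polymerase on its template. Pcna (mm9, chromosome 2, 132075022 to 132075054, the part of the probe placed by the file) read 4.55, 4.68, 4.50 and 4.44 on the controls and 4.23, 4.22, 4.31 and 4.28 on the knockouts. All 4 knockout arrays lay below all 4 controls, and control 2 was the highest array. The difference was -0.28 with a standard error of 0.078. Its adjusted p of 0.0757 in limma was the smallest of any member. Within slide row 1 the difference was -0.29 and within row 2 it was -0.31, each with 1 array on one side. Its adjusted p ran from 0.0396 with array weights to 0.276 with the replicate block, and its difference was -0.17 under quantile normalization. The ribonucleotide reductase subunits Rrm1 and Rrm2, which make deoxynucleotides, differed by 0.028 and -7.6e-04, and thymidylate synthase (Tyms) by -0.037.

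The S phase members Ccne2, Chek1 and Brca1 did not pass the filter. Ccne2 was well above background on 2 control and 1 knockout arrays, the checkpoint kinase Chek1 on 2 and 3, and the repair gene Brca1 on 0 and 2. No difference is given for these genes.

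Mitotic entry is driven by cyclins A2, B1 and B2 with Cdk1, by the kinases Plk1 and Aurka, and by Foxm1, which switches on many of the others. The 6 genes of this group differed by between -0.13 (Foxm1) and -0.029 (Ccnb2), all within overlapping groups. A dimmer second Foxm1 probe gave 0.17 with a standard error of 0.15. Plk1 (mm9, chromosome 7, 129313220 to 129313279) read 3.39, 2.60, 3.61 and 3.52 on the controls and 3.43, 3.30, 3.45 and 2.70 on the knockouts. Control 2 and KO 4 were again low, the SD over the controls was 0.46, and the difference was -0.058 with a standard error of 0.25.

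The spindle checkpoint holds chromosomes until all are attached, and Cdc20 then activates the anaphase-promoting complex. Cdc20 (mm9, chromosome 4, 118105534 to 118105593) read 3.18, 2.65, 3.46 and 3.35 on the controls and 3.37, 3.27, 3.30 and 2.74 on the knockouts, a difference of 0.0089. The checkpoint genes Bub1, Bub1b, Mad2l1 and Ttk differed by -0.13, 0.058, -0.11 and 0.14, the last at -0.039 after normexp background correction. One of 3 Mad2l1 probes read 1.37 on control 4 and between -2.35 and -1.71 on the other arrays, and it was not the probe that stood for the gene.

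The chromosomal passenger complex, which includes Aurora B (Aurkb) and survivin (Birc5), corrects attachments at the centromere. Birc5 (mm9, chromosome 11, 117716978 to 117717037) read 4.89, 4.83, 4.87 and 4.77 on the controls and 4.65, 4.64, 4.71 and 4.66 on the knockouts. All knockout arrays lay below all controls by a small step, and the difference of -0.17 with a standard error of 0.068 did not pass (limma adjusted p 0.195). The other 2 Birc5 probes gave -0.16 and -0.19. Under quantile normalization the difference was -0.058. Aurkb differed by -0.17 (standard error 0.30), and control 3 at -1.55 stood above the rest of its group, which lay between -2.99 and -2.41.

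Of the centromere genes, Cenpa, Cenpe and Cenpf differed by -0.0081, -0.043 and -0.35. The Cenpf value, the lowest of any member, carried a standard error of 0.23. Cenpf was dim: it was well above background on 3 of 4 control arrays and passed the filter only through the knockout group. Control 2 read -3.16 while the other controls lay between -4.25 and -3.84, and without control 2 the difference was -0.12. The spindle genes Kif11, Kif20a, Tpx2 and Nusap1 differed by -0.14, -0.032, 0.0076 and -0.065. Topoisomerase Top2a differed by 0.081, and Mki67, the gene of the proliferation marker Ki-67, by -0.0040. Dimmer second probes gave -0.21 for Tpx2 and 0.057 for Mki67. Of 41 members, 4 had all knockout arrays below all control arrays (E2f2, Gmnn, Pcna and Birc5) and 0 had them above, against 9.25% and 5.41% of all genes. At 9.76% the lower share was near that of all genes.

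**Figure D2:**
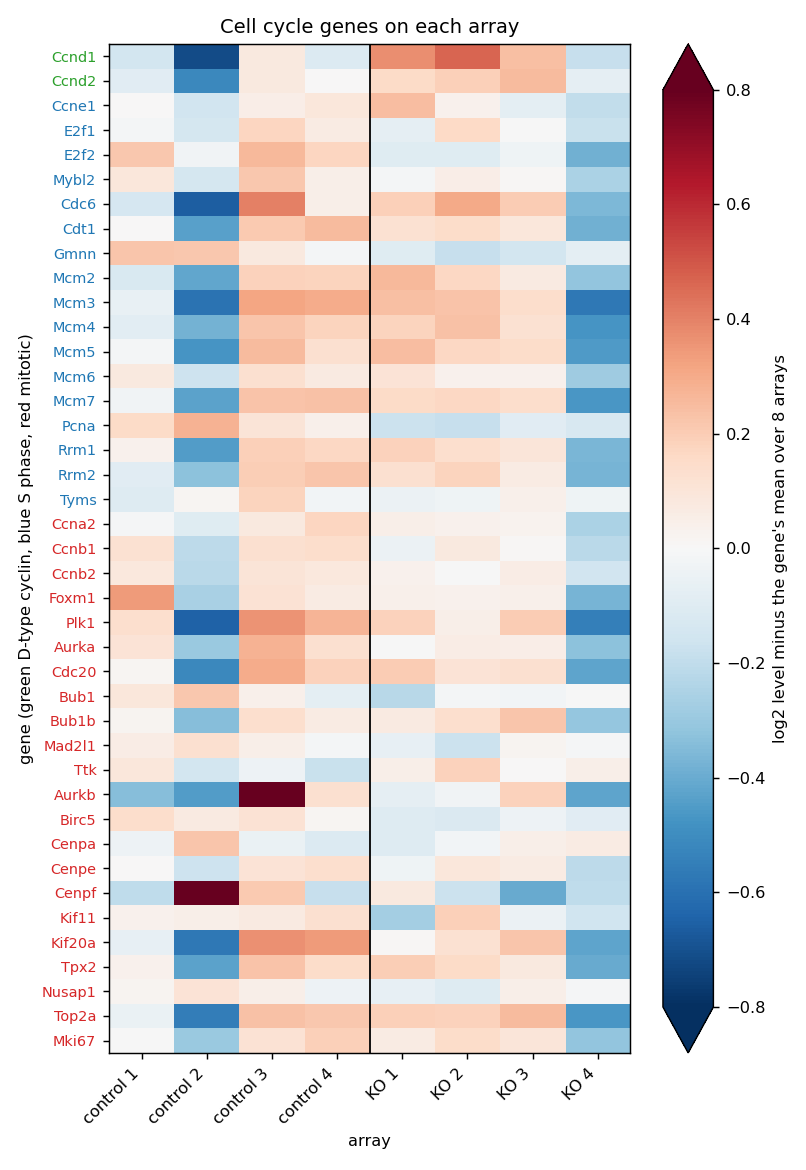
Levels of the 41 members (rows, by role) on the 8 arrays (columns), each shown as the log2 level minus the gene's own mean over the 8 arrays. The colour scale ends at -0.8 and 0.8, the line separates control from KO arrays, and 30 of the 41 genes are lowest of their group on control 2 and on KO 4.

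The largest pattern among the members lay within the groups. On control 2, 30 of 41 members had the lowest level of the controls, and the same 30 had the lowest level of the knockouts on KO 4. This held for 73.2% of members and for 18.0% of all genes. Both arrays were singled out by the members' own levels, so these shares are a description and not a test. The pattern covered all 6 MCM genes, 14 of 17 S phase members, 14 of 22 mitotic members and both D-type cyclins. The median member lay 0.40 log2 units below the mean of the other 3 arrays on control 2 (a deviation of -0.40), and the deviation on KO 4 was -0.34. Over all genes these medians were -0.015 and 0.052.

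The deviations on control 2 were deepest in Plk1, Kif20a, Mcm3 and Cdc6. Plk1 deviated by -0.90 on control 2 and -0.69 on KO 4, Kif20a, a mitotic kinesin, by -0.79 and -0.54, Mcm3 by -0.78 and -0.77, and Cdc6 by -0.76 and -0.59. The 30 genes had 9 other probes that passed the filter, and 7 of these were also lowest on both arrays. A second Mcm3 probe deviated by -0.79 and -0.73 and a second Ccne1 probe by -0.051 and -0.31. The other Ccnb1 probes did not repeat the pattern, at -0.33 and -0.078 for one and -0.015 and -0.11 for the other. Both arrays were low by over 0.3 in 20 of 41 members, or 48.8%, against 6.02% of all genes.

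The 11 members outside this pattern were Gmnn, Pcna and Tyms of S phase and Bub1, Mad2l1, Ttk, Birc5, Cenpa, Cenpf, Kif11 and Nusap1 of mitosis. Gmnn, Pcna and Birc5, whose knockout arrays all lay below the controls, were among them, and E2f2, the fourth such gene, was not. Pcna deviated by 0.18 on control 2 and 0.023 on KO 4, and Birc5 by -0.017 and -0.0042. S phase and mitotic genes thus occur on both sides.

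The pattern was present under each scaling tried. Under quantile normalization, 30 members were lowest on both arrays, 33 under median centring, 30 after normexp background correction and 29 in the authors' matrix values, and the 6 MCM genes were included each time. The count over all 23282 genes ran from 4110 to 7358, the highest under median centring. The MCM median deviations ran from -0.67 to -0.45 on control 2 and from -0.74 to -0.61 on KO 4. One low array fell in each group, and the spread within groups was wide: the median SD within groups was 0.31 for the MCM genes and 0.21 for all members, against 0.17 for all genes.

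**Figure D3:**
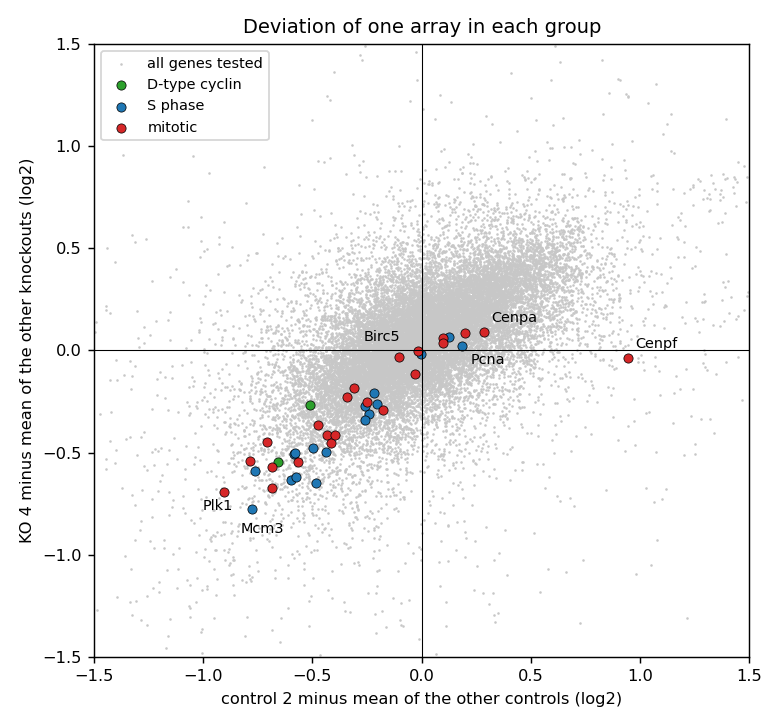
Deviation of control 2 from the mean of the other 3 controls (x axis) against that of KO 4 from the mean of the other 3 knockouts (y axis), in log2 units, for all genes (grey) and for the members (coloured by phase). Both axes end at -1.5 and 1.5, which leaves out 221 of 23240 genes. Most members lie in the lower left, and Pcna, Cenpa and Cenpf lie apart.

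Across genes, the deviations of the arrays had a Pearson correlation of 0.51 over all 23240 genes and 0.87 over the 41 members. Genes are not independent replicates, and each array's values share its RNA, labelling and signal range. The arrays lay in different rows of the slide. Control 2 had the most outlier spots of all arrays, 355, and KO 4 the fewest, 153. KO 4 also had the most probes well above background, 67.1%, beside 57.7% on control 2. Some other genes moved with these arrays. The summed level of the 6 mesenchyme markers deviated by -0.70 on control 2 and -0.87 on KO 4, with 4 of 6 lowest on both. It ranged from 7.02 to 8.02 over controls and from 7.16 to 8.19 over knockouts. In this sum control 1, at 7.28, was near control 2, at 7.02. The median deviation of the members on control 1 was 0.0070. The collagen gene Col1a1 read 4.24 on control 2 and 4.67 on KO 4.

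The 4 exocrine pancreas markers that passed the filter deviated by -1.26 and -1.16 in sum. This sum also varied among the other arrays, at 4.17, 2.47, 3.95 and 3.06 on controls 1 to 4. On KO 1 to 4 it read 3.85, 2.71, 3.00 and 2.03. The 4 erythroid markers that passed deviated by 0.65 and 0.79 in sum. In the erythroid sum control 1 was near control 2, at 8.16 beside 8.44. The gut epithelium sum deviated by -0.46 and -0.0066, and that of the 6 crypt and intervillus stem cell markers by -0.26 and -0.14. Enterocyte, smooth muscle, enteric neuron and glia, endothelium, leukocyte and liver sums deviated by between -0.29 and -0.091 on control 2. On KO 4 these sums deviated by between -0.13 and 0.13. Probe position moved with the deviations as well. Over genes whose probe started within the first 1000 bases of the transcript the median deviations were 0.10 and 0.17, and where it started from base 5000 on they were -0.18 and -0.13. Members did not follow this order in full. The 3 members with probes in the first 1000 bases had median deviations of 0.12 and 0.064, the 9 starting from base 1000 on -0.31 and -0.26, the 16 from base 2000 on -0.57 and -0.51, the 10 from base 3000 on -0.42 and -0.43, and the 3 from base 5000 on -0.25 and -0.25. The part of these measures in the low cell cycle levels was not tested.

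A further 158 cell cycle genes were listed by role, and 155 passed the filter (all but Kif14, Ccnb3 and Ccna1). Of these, 3 were called, or 1.94%, against 4.90% of all genes, and 2 of the 3 (Cdkn2a and Cdk6) passed the filter only through the knockout group. None of 50 other replication genes and none of 59 other mitotic genes passed in limma, and their median differences were -0.052 and -0.046. At an unadjusted p under 0.05 there were 1 and 3, or 2.00% and 5.08%, against 20.5% of all genes. The kinase Cdk1 differed by -0.073. Both low arrays were also lowest for 20 of the 50 replication and 27 of the 59 mitotic genes, or 40.0% and 45.8%, beside 18.0% of all genes. The drop was smaller than in the members, whose median deviations were -0.40 on control 2 and -0.34 on KO 4. These medians were -0.036 and -0.15 for the replication genes, and -0.14 and -0.15 for the mitotic genes. Over all genes they were -0.015 and 0.052.

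Cdkn2a, which encodes the Cdk4/6 inhibitor p16Ink4a and the p53 activator p19Arf, was higher on the knockout arrays. Its probe (mm9, chromosome 4, 88920405 to 88920464) was above background on none of the control arrays (0 of 4), so only a bound is given. It read -5.89, -5.41, -5.82 and -6.42 on the controls and -3.27, -4.22, -4.51 and -3.61 on the knockouts. All knockout arrays lay above all controls. The mean of the knockouts, -3.90, was at least 1.80-fold higher than the lowest signal that counts as above background on the control arrays, whose measured mean was -5.88 (limma adjusted p 0.0070). The probe entered the test through the knockout group, where it was high, so its p is no independent support. With no filter on dim probes, where every gene was tested, its adjusted p in limma was 0.0324. With normexp background correction the measured difference was 0.47 log2 units (limma adjusted p 0.038), and in the authors' matrix values it was 0.68. Both are smaller than the 1.80-fold bound, which belongs to the main processing alone.

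Cdk6, the D cyclin partner, also read higher, at -4.44, -4.13, -4.12 and -4.23 on the controls and -3.70, -3.44, -3.64 and -3.69 on the knockouts. The groups did not overlap, and they differed by 0.62 (standard error 0.10, limma adjusted p 0.010). Its probe (mm9, chromosome 5, 3522106 to 3522165) was well above background on 2 of 4 control arrays. It too entered the test through the knockout group, where it was high, so its p is no independent support. The difference of 0.62 rests in part on background signal. With no filter its adjusted p in limma was 0.0429. With normexp background correction the difference was 0.20 and the adjusted p 0.144 in limma, and with a trended robust variance prior the adjusted p was 0.051. Its close relative Cdk4 (mm9, chromosome 10, 126504279 to 126504338) had all knockout arrays below all controls and a difference of -0.28 that did not pass (limma adjusted p 0.076).

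E2f8, an atypical E2F that represses E2F targets, was lower on the knockout arrays. E2f8 (mm9, chromosome 7, 56121860 to 56121919) read 2.87, 2.52, 2.69 and 2.67 on the controls and 2.20, 2.24, 2.27 and 2.03 on the knockouts. The groups did not overlap, and they differed by -0.50 (standard error 0.097, limma adjusted p 0.023). E2f8 passed in 11 of 20 alternatives. The adjusted p in limma rose to 0.135 under median centring, to 0.080 with no filter and to 0.110 with the replicate block, and leaving out any array other than control 2 or KO 3 gave between 0.052 and 0.067. Among Cdk inhibitors, Cdkn1a, Cdkn1b and Cdkn1c differed by -0.16, 0.12 and 0.18, and none passed.

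**Figure D4:**
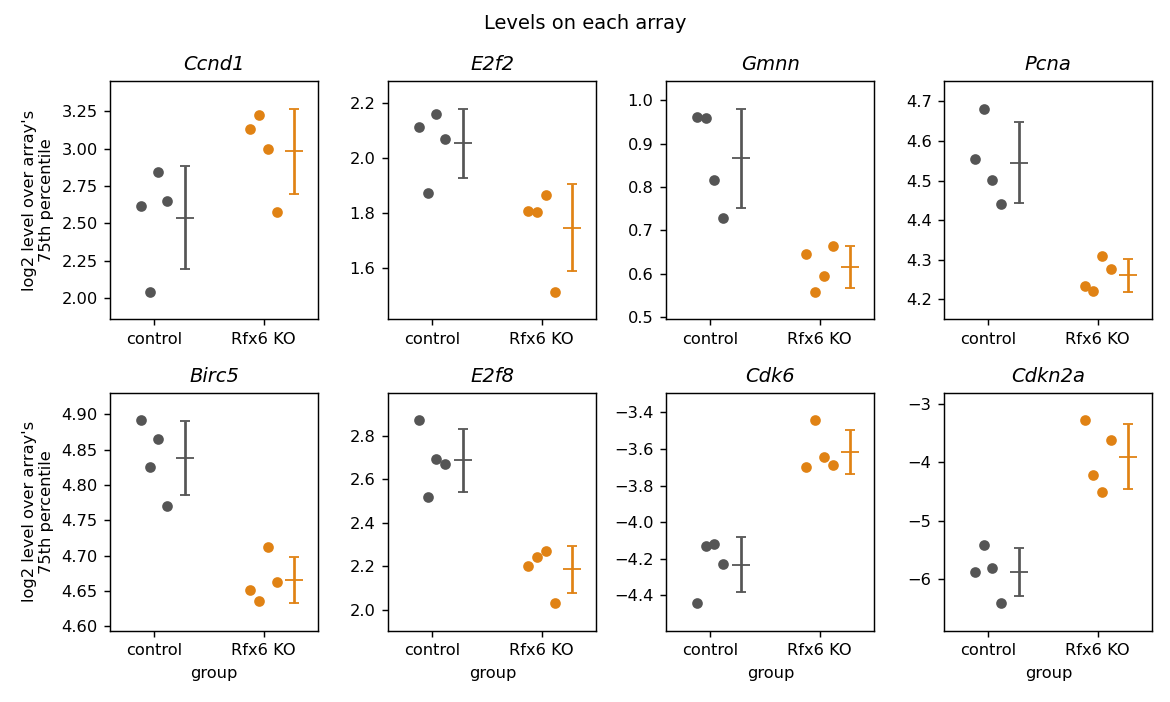
Log2 levels over the array's 75th percentile (y axis) on each control and Rfx6 KO array (x axis) for 5 members and, at the lower right, the 3 other cell cycle genes that passed the threshold (E2f8, Cdk6 and Cdkn2a). Points are arrays in replicate order, and the bars beside them are the mean and SD (n = 4). Each panel has its own y axis, and levels are not comparable between panels.

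Markers of other cell types differed between the groups as well. For the counts that follow, 2.32% of all genes were called higher and 2.58% lower at the same threshold. Of 8 enterocyte markers, 4 were lower on the knockout arrays (Fabp1 by -0.65, Fabp2 by -0.42, Apoa4 by -0.61 and Lct by -0.75). Of 6 stem cell markers 1 was higher, Olfm4 by 0.89, and Lgr5 differed by 0.43 without passing (limma adjusted p 0.144). Of 5 liver markers, 2 were higher, Ttr by 0.63 and Fgb by 1.20. Of 8 stomach epithelium markers, 7 were higher, but 6 of the 8 were above background on fewer than 4 control arrays, 3 of them on none, and so passed the filter only through the knockout group. Their summed level ran from 8.56 to 9.46 over knockouts and from -1.06 to 2.38 over controls, where part of it is background signal. Their part in the values of Cdkn2a, Cdk6 and E2f8 was not tested.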

How the data were processed

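RNA of 8 samples, 4 per group, was amplified from 100 ng and labelled with cyanine 3, per the labels' protocols. Arrays were read with Agilent Feature Extraction 10.10.1.1, per the submitters' processing notes. The deposited values are an intensity per spot on a linear scale, background-subtracted by that software and not scaled between arrays, per the file headers. The authors' matrix also holds an intensity, which followed quantile-normalized spot medians to within 0.5 units.

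Control spots (3671 of 62976 per array) were left out and outlier spots set aside (153 to 355 per array). No spot was saturated. Spots of a probe were averaged. A probe was kept if well above background on all 4 arrays of a group, which left 31668 probes, and the brightest kept probe stood for a gene. Differences were tested two-sided (lmFit and eBayes, limma 3.58.1, R 4.3.3). P-values were adjusted over 23282 genes by Benjamini-Hochberg, with 0.05 as the threshold. On simulated data for this comparison with 200 of 23282 genes changed, 96% of 4-fold and 80% of 2-fold changes were called. The simulation drew noise for each gene independently, with no shift shared by the genes of an array. The members shared such shifts and had a wider spread than all genes, so these shares do not measure the power for members. The number of arrays limits the precision.

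Groups and replicate numbers came from the labels. The rule for named genes took all members, and other cell cycle genes only past the threshold; Cdk1, Cdk4 and the Cdkn1 genes were added after their values were seen. The members and lists were chosen with earlier results of these data known. Alternatives changed background correction, scaling, filter, probe choice, blocks, weights, variance prior and arrays. Promoters came from RefSeq on GRCm38.p6, and probe positions are those of the files on mm9.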

Additional observations from a re-analysis of the deposited data

Results flagged for a closer look

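Among 92 groups of 4 arrays, 1 array lay far from the other 3 in 17, where chance gives about 1 in 20. The groups are not independent, since the genes share arrays. In 13 of them KO 4 was far below the other knockouts. It read 2.76 for Cdt1 (others 3.24 to 3.30), 2.50 for Mcm3 (3.21 to 3.31), 2.43 for Mcm4 (3.02 to 3.14), 1.77 for Mcm5 (2.36 to 2.46), 2.76 for Mcm7 (3.37 to 3.40) and 1.79 for Rrm1 (2.26 to 2.34). Among mitotic genes it read 2.34 for Ccna2 (2.62 to 2.64), -0.16 for Foxm1 (0.24 to 0.25), 2.03 for Aurka (2.36 to 2.42), 2.74 for Cdc20 (3.27 to 3.37) and 1.05 for Top2a (1.70 to 1.77). The mean over S phase members was 1.63 on KO 4 and between 1.98 and 2.03 on the other knockouts, and that over mitotic members was 1.01 against 1.25 to 1.30.

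Control 2 was far below the other controls for Ccnb1 at 2.07 (2.41 to 2.42) and Ccnb2 at 2.94 (3.24 to 3.26). For Tyms, KO 3 at -1.43 was far above the other knockouts (-1.52 to -1.51). For Bub1, KO 1 at -0.41 was far below the others (-0.21 to -0.19).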

How the results depend on the processing

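Over 20 alternatives the count of members called stayed at 0 in each direction except with array weights, where 2 were lower (E2f2 and Pcna). The count of all genes called was 2316 with array weights, 497 with no filter and 414 with the replicate block, against 1140. It ran from 580 to 1103 on leaving out 1 array. The counts without KO 1, KO 2, control 1 and control 3, namely 595, 580, 592 and 713, differed from 1140 by over 1.5 times. The replicate numbers did not pair the samples: deviations of same-numbered arrays correlated at -0.069, -0.17, 0.071 and -0.41, and with the replicate block 0 members were called. The median difference ran from -0.12 to 0.11 for S phase members and from -0.12 to 0.0031 for mitotic members, both within the spread between arrays. The cause of these shifts was not tested. Signal over background limits what can be said of Ccne2, Chek1, Brca1, Cenpf, Cdk6 and Cdkn2a.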
